A study of Mus musculus with 14 samples.

Results

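The comparison is of whole kidneys from 5 i-TERTci mice injected with GSK2830371 and 5 i-TERTci mice injected with its vehicle DMSO, which are 10 of the 14 kidneys sequenced. The members were taken from the submitters' treatment labels. Every i-TERTci mouse carried 2 transgenes, each heterozygous: actin-rtTA, a doxycycline-responsive activator expressed throughout the body, and tetop-TERTci, which the activator switches on to make a catalytically inactive telomerase reverse transcriptase. Doxycycline was in the drinking water of every mouse, and the other 4 kidneys, used here as a reference level, came from actin-rtTA mice on the same water for 30 days, with no injection recorded. Injections were intraperitoneal and daily, and began once urine protein was high, at about 15 days of doxycycline. The driver is not restricted to any kidney cell, so each difference below is between mice treated in the whole body and each profile is of the whole organ. In such bulk RNA, fewer cells of a type and less RNA per cell cannot be told apart.

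GSK2830371 is an allosteric inhibitor of the phosphatase WIP1, the product of Ppm1d. WIP1 is induced by p53 and closes the loop by removing activating phosphates from p53, from the kinases ATM, CHK1, CHK2 and p38, and from the histone H2AX, so that blocking it prolongs DNA damage and p53 signals. Collapsing glomerulopathy, the disease that i-TERTci mice develop, involves dedifferentiation and cycling of podocytes, collapse of the capillary tuft and secondary tubular damage. The question that the comparison addresses is which transcripts of the diseased kidney differ when the phosphatase is inhibited.

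Replicates 1 to 5 of the DMSO group were taken at 29, 29, 29, 38 and 31 days on doxycycline, and those of the GSK2830371 group at 31, 49, 49, 49 and 28 days. The labels give no sex, and it was taken here from reads of Xist and the Y-linked gene Ddx3y. DMSO replicates 2 and 5 and GSK2830371 replicates 2, 3 and 4 were Xist-positive, the other 5 were Y-positive, and all 4 controls were Xist-positive. The 3 kidneys at 49 days were therefore all in the GSK2830371 group and all Xist-positive. Among Xist-positive kidneys the DMSO ones were at 29 and 31 days, so that treatment and days cannot be told apart there. Kidneys at 31 days or fewer were DMSO replicates 1, 2, 3 and 5 and GSK2830371 replicates 1 and 5. Both of those GSK2830371 kidneys were Y-positive, while DMSO replicates 2 and 5 were Xist-positive, so that subset is unbalanced in sex. Libraries held 47194888 to 49422279 reads in genes in the 10 i-TERTci kidneys and 48469086 to 64581825 in the controls. Mitochondrial genes took 4.95% to 9.52% of reads in the DMSO group, 5.07% to 8.35% in the GSK2830371 group and 14.45% to 24.18% in the controls. Kidney identity was checked on defining markers: Slc34a1, the phosphate transporter of the proximal tubule, had 28556 to 142435 normalised reads in the 10 libraries, and Nphs1, the nephrin gene of podocytes, 923 to 4850. Neither was near 0 in any library. A normalised read count is the number of reads of a gene after division by a size factor for its library, and differences are given as GSK2830371 minus DMSO on the scale of log2(normalised reads + 1).

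No gene passed the test between the inhibitor and the vehicle. At a limma adjusted p under 0.05 the count was 0 of 18810 genes (0%), and the smallest adjusted p was 0.994. At an unadjusted p under 0.05 there were 429 genes that were higher (2.28%) and 371 that were lower (1.97%), 800 in all, or 4.25% of the genes tested. edgeR's quasi-likelihood test on the recovered reads also gave 0 genes, with 871 at an unadjusted p under 0.05. DESeq2 gave 1 gene, Il1b, and 1014 at an unadjusted p under 0.05. Without DMSO replicate 5 limma still gave 0 genes, with 1377 at an unadjusted p under 0.05. In 45 genes every GSK2830371 kidney was above every DMSO kidney (0.239%), and in 46 genes every one was below (0.245%). With 5 against 5 kidneys some genes separate in this way without any difference, so nothing is read from these counts. The median difference over all genes was -0.0063 and 48.9% of genes were higher, a balance that the scaling of the libraries sets near 0.

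**Figure D1:**
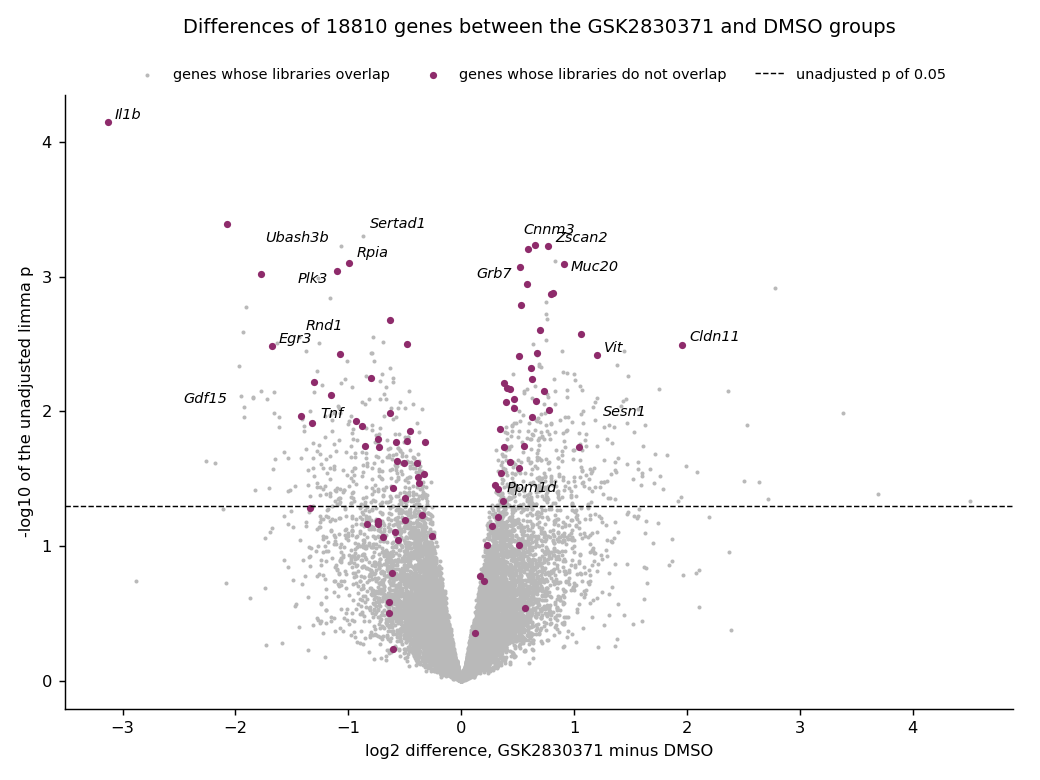
Difference of each of the 18810 genes (horizontal axis, log2, GSK2830371 minus DMSO) against its unadjusted limma p (vertical axis, -log10). Coloured points are the genes whose 5 and 5 libraries do not overlap, and the dashed line marks an unadjusted p of 0.05. Il1b, at -3.13, stands alone at the top left and no point passes the adjusted threshold.

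A result that misses the threshold does not show that the groups are alike, and the intervals say what size of difference this fit leaves room for. The 95% interval of a gene's difference had a median distance from its centre of 0.55 on the log2 scale, with quartiles of 0.38 and 0.86. For 12359 genes (65.7%) the interval lay within a 2-fold difference in either direction. For 1068 genes (5.68%) it reached a 4-fold difference. The SD between kidneys of a group had a median of 0.42 in the DMSO group and 0.37 in the GSK2830371 group, against 0.29 in the controls. The intervals use 1 estimate of the spread shared with the controls, which varied least, and take no account of sex or days. With only the 10 i-TERTci libraries fitted, limma gave 597 genes at an unadjusted p under 0.05, in place of 800.

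The inhibitor and vehicle kidneys overlapped on the leading components of the whole profiles. In a principal component analysis of the 10 libraries, component 1 held 28% of the variance and component 2 held 17.6%. DMSO kidneys lay from -62.4 to 84 on component 1 and GSK2830371 kidneys from -49.3 to 46.5. On component 4, with 9.55% of the variance, DMSO kidneys lay at -16.1, 5.9, -52, -1 and -8.8 and GSK2830371 kidneys at 44, 21.8, 20.4, 16 and -30.1, so that all GSK2830371 kidneys but replicate 5 were above every DMSO kidney. A second view was the position on the changes that separate all 10 i-TERTci kidneys from the controls, of which 5221 genes rose (27.8% of those tested) and 4787 fell (25.4%). The genes that rose were on average 1.22 to 1.59 above the controls in the DMSO kidneys, on the log2 scale, and 1.22 to 1.56 above in the GSK2830371 kidneys. The genes that fell stood at -1.50 to -1.12 in the DMSO group and at -1.60 to -1.05 in the GSK2830371 group. The ranges overlapped almost whole. Between the treatments, the genes that rose had a median difference of -0.036 and the genes that fell one of 0.032. Both medians changed sign among kidneys at 31 days or fewer, to 0.025 and -0.044. Both groups of genes were chosen on a contrast that weighs the 2 treatments alike.

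**Figure D2:**
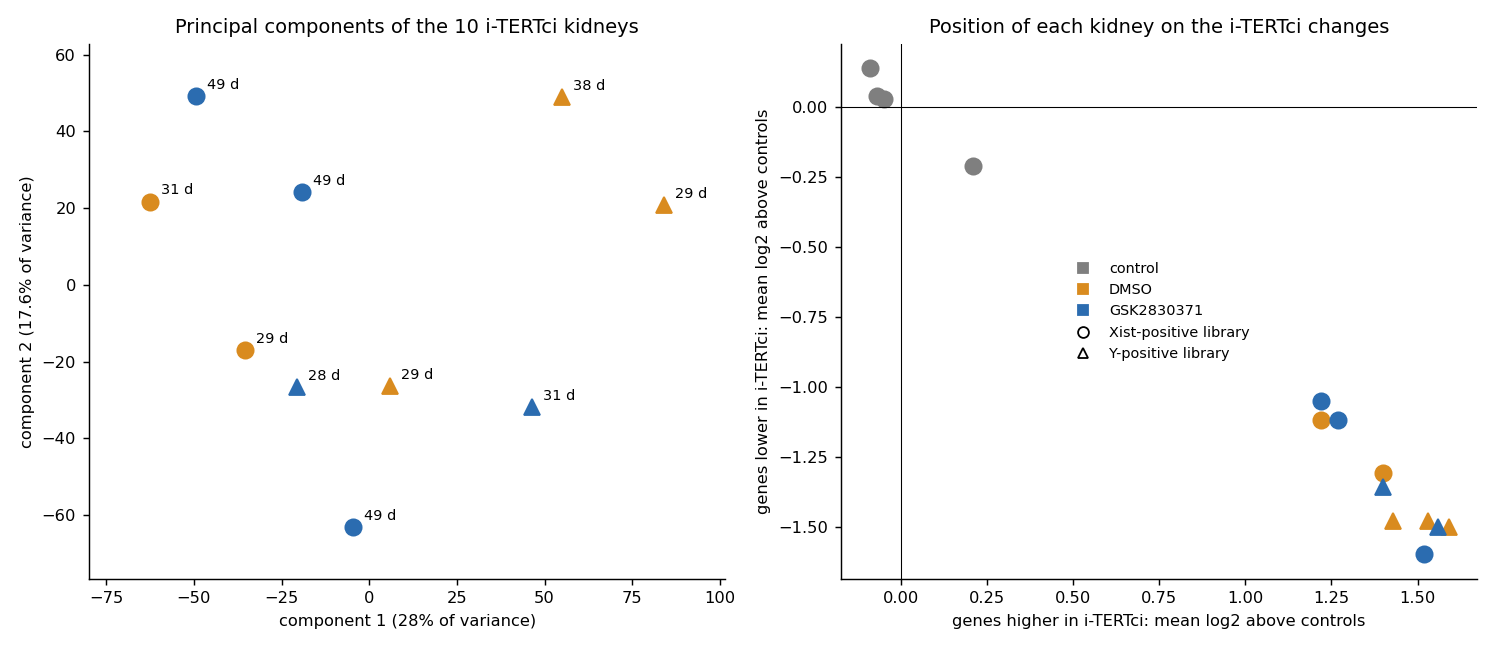
Left, components 1 and 2 of the 10 i-TERTci kidneys, labelled with days on doxycycline; right, the mean log2 level above the controls of the genes that rose (horizontal) and that fell (vertical) in i-TERTci kidneys. Colour gives the group and shape the sex read from the library. DMSO and GSK2830371 kidneys are mixed in both views, while the controls lie apart near 0.

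The drug's target and the transgene were measured in every kidney. Ppm1d had 530, 512, 621, 552 and 529 normalised reads in DMSO replicates 1 to 5 and 969, 777, 560, 607 and 621 in GSK2830371 replicates 1 to 5. All DMSO kidneys but replicate 3 lay below every GSK2830371 kidney, and the controls were above nearly all, at 901 ± 29.3 (SD, n = 4). The difference was 0.34 (95% interval 0.01 to 0.66, adjusted p = 0.994). The inhibitor acts on the protein, so the Ppm1d transcript is no check of whether it was given. Tert, whose reads come from the transgene and the endogenous gene together, had 1569, 1282, 2732, 1515 and 574 reads in the DMSO kidneys and 355, 231, 906, 2546 and 1448 in the GSK2830371 kidneys, against 146 ± 27.5 (SD, n = 4) in the controls. Every i-TERTci kidney was above every control, and the 2 treatments overlapped. The difference was -0.82 (-2.03 to 0.39). It was -0.08 among Xist-positive kidneys and -1.38 among Y-positive ones.

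Genes around WIP1 were level. Of 16 genes of its circuit, 8 were higher and 8 lower, with a median of -0.0028, and only Ppm1d itself was at an unadjusted p under 0.05. Trp53, which encodes p53, had 1267, 1491, 1454, 2129 and 1503 reads under DMSO and 846, 1337, 1139, 1444 and 1338 under GSK2830371. DMSO replicate 1 lay within the GSK2830371 range and the other 4 DMSO kidneys were above it, with a difference of -0.36 (-0.81 to 0.08). Mapk14, which encodes p38 alpha, differed by 0.24 (-0.08 to 0.56), and Atm by 0.22 (-0.35 to 0.78). H2ax, the histone that WIP1 dephosphorylates, differed by -0.32 (-0.81 to 0.18). The checkpoint kinase genes Chek1 and Chek2, of low counts, had wide intervals, from -1.33 to 0.51 and from -0.51 to 0.87. These are transcript levels, and the phosphorylation that WIP1 removes was not measured.

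Transcriptional targets of p53 also stood near the level of all genes. Of 38 measured, 23 were higher and 15 lower, with a median of 0.06. At an unadjusted p under 0.05 there were 2 higher, Sesn1 and Xpc, and 1 lower, Plk3, beside 2.28% and 1.97% of all genes. Cdkn1a, which encodes the cell cycle inhibitor p21, had 11191, 6626, 8134, 10379 and 1756 reads under DMSO and 19138, 12578, 3717, 4636 and 9727 under GSK2830371, against 890 ± 204 (SD, n = 4) in the controls. The treated groups overlapped throughout, at a difference of 0.38 (-0.73 to 1.48). Without DMSO replicate 5, the lowest kidney, it was -0.09. Mdm2, the ubiquitin ligase of p53, had 2402 ± 631 reads under DMSO and 2259 ± 406 under GSK2830371 (SD, n = 5 each), a difference of -0.07 (-0.42 to 0.28). Bax, a pro-apoptotic target, differed by -0.26 (-0.64 to 0.11), and Ccng1, which encodes cyclin G1, by 0.17 (-0.27 to 0.61).

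Sesn1, the p53-induced sestrin that restrains mTORC1, had 959, 885, 1283, 526 and 909 reads under DMSO and 6421, 2425, 1316, 857 and 1840 under GSK2830371. GSK2830371 replicate 1 was far above all others, and replicate 4 lay within the DMSO range. The difference was 1.19 (0.31 to 2.07), and 0.77 without GSK2830371 replicate 1. The same kidney had the highest Cdkn1a of the 10. Trp53inp1, another stress-induced target, had 3270 ± 1036 reads under DMSO and 6759 ± 6023 under GSK2830371, a difference of 0.72 (-0.21 to 1.65). Xpc, a DNA damage recognition factor, had 2263 ± 185 and 2979 ± 480 reads, a difference of 0.39 (0.09 to 0.68).

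The gene with the smallest p was Il1b, which encodes the inflammatory cytokine interleukin-1 beta. It had 468, 44, 83.4, 314 and 137 normalised reads in the DMSO kidneys and 11.3, 8.71, 27.6, 29.4 and 13.4 in the GSK2830371 kidneys. The lowest DMSO kidney was above the highest GSK2830371 kidney, and the controls, at 15.4 ± 9.3 (SD, n = 4), were at the level of the GSK2830371 group. The difference was -3.13 (-4.38 to -1.88), with a limma adjusted p of 0.994. DESeq2 gave -3.53 with an adjusted p of 1.48e-05 on the 14 libraries and -3.52 with 5.21e-05 on the 10 i-TERTci libraries. edgeR gave -3.51 with an adjusted p of 0.817. Over all 30 alternatives the adjusted p ran from 1.48e-05 to 1 and the difference from -4.13 to -1.95, always in 1 direction. The difference was -3.24 among kidneys at 31 days or fewer, -1.95 among Xist-positive and -4.13 among Y-positive kidneys. The call therefore rests on the tool. Because the groups do not overlap in Il1b, any subset of these kidneys gives the same direction, so the shared direction adds no support.

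Il1b is the member that the search of all genes turns on, so the 250 bases before its start are shown. They lie at chr2:129371140-129371389 on the minus strand of GRCm38.p6 and are taken from RefSeq, written 5' to 3' with the TATA box in capitals.
Il1b promoter: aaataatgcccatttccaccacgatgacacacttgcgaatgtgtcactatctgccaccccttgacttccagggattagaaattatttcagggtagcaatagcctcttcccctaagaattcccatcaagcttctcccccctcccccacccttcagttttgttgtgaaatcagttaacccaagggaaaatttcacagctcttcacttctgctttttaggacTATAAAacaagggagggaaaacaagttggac
The first base of the box is 31 bases before the start. TATAAA on the gene's own strand was found in 7.59% of the 32851 RefSeq promoters of that length. Among the 10 lower genes with the smallest p, 9 had a promoter in the table, and the box was in those of Il1b and Irf8. TGANTCA, the AP-1 site, which reads alike on both strands, was in that of Rcan1, beside 6.75% of all promoters. The NF-kB site was searched on both strands and occurs in 7.25% of all promoters. It was in none of these 9 windows and in 1 of the 6 windows of the higher genes, that of Zscan2. A match describes the letters of this window and no binding was measured.

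The other lower genes with the smallest p follow. Plk3, a stress-induced polo-like kinase and p53 target, had 2573, 2344, 3230, 5349 and 1967 reads under DMSO and 1906, 1499, 923, 1548 and 1117 under GSK2830371. The groups did not overlap, by a narrow margin, and DMSO replicate 4 was highest. The difference was -1.10 (-1.67 to -0.53), against 1645 ± 536 reads (SD, n = 4) in the controls. Rcan1, which encodes an inhibitor of calcineurin, had 8702, 6605, 4281, 9877 and 4216 reads under DMSO and 2052, 1921, 3454, 4957 and 1848 under GSK2830371. GSK2830371 replicate 4 lay above 2 of the DMSO kidneys. The difference was -1.27 (-1.94 to -0.60). Sertad1, a regulator of CDK4 and E2F activity, had 955, 961, 1302, 1556 and 669 reads and then 470, 678, 548, 624 and 555. DMSO replicate 5 lay within the range of the GSK2830371 group, and the difference was -0.87 (-1.30 to -0.45).

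Rpia, Ctps and Pprc1 were also among the 10. Rpia, ribose-5-phosphate isomerase of the pentose phosphate pathway, had 1183, 808, 1146, 2116 and 745 reads under DMSO and 606, 514, 589, 737 and 415 under GSK2830371. The lowest DMSO kidney was just above the highest GSK2830371 kidney, at a difference of -0.99 (-1.50 to -0.48). Ctps, CTP synthase, had 3648, 3274, 4502, 7269 and 1516 reads and then 1356, 1416, 1842, 1818 and 1647. DMSO replicate 5 fell inside the GSK2830371 range while the other 4 DMSO kidneys were clear of it, and the difference was -1.16 (-1.80 to -0.52). The controls had 872 ± 194 Ctps reads (SD, n = 4), below both treatments. Pprc1, a coactivator of mitochondrial and nucleolar gene expression, had 1318 ± 490 reads under DMSO and 748 ± 180 under GSK2830371, a difference of -0.78 (-1.25 to -0.31).

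Irf8, Ubash3b and Rnd1 complete the 10 lower genes. Irf8, a transcription factor of myeloid cells, had 1407, 881, 1054, 984 and 1044 reads under DMSO and 746, 772, 564, 720 and 633 under GSK2830371. The groups did not overlap, and the controls, at 989 ± 268 (SD, n = 4), were at the level of DMSO. The difference was -0.63 (-1.0 to -0.27). Ubash3b, a phosphatase that dampens receptor and T cell signalling, had 1048, 469, 623, 711 and 398 reads and then 204, 303, 281, 306 and 412. Only GSK2830371 replicate 5 reached into the DMSO range, at a difference of -1.06 (-1.59 to -0.53). Rnd1, which loosens the actin cytoskeleton, had 1621, 608, 471, 563 and 215 reads and then 354, 211, 170, 254 and 118. DMSO replicate 5 lay below 2 of the GSK2830371 kidneys, and the difference was -1.44 (-2.30 to -0.57). Across these 10 genes DMSO replicate 5, an Xist-positive kidney at 31 days, was the lowest of its group in 8, and within the DMSO group it had the position nearest the controls on the genes that separate i-TERTci from control kidneys.

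On the higher side, the smallest p belonged to Cnnm3, of a family linked to magnesium transport. It had 1149, 1109, 1194, 1147 and 1201 reads under DMSO and 2318, 2293, 1853, 1290 and 1582 under GSK2830371. The DMSO kidneys were nearly identical and the GSK2830371 kidneys spread upward from just above them, past the controls, which had 1874 ± 139 reads (SD, n = 4). The difference was 0.65 (0.33 to 0.98). Grb7, an adaptor of receptor tyrosine kinases, had 1984, 1790, 1869, 2028 and 2258 reads and then 2722, 2957, 3002, 2743 and 2769. Both groups were tight and apart, at 0.52 (0.25 to 0.79), and the controls were far above both at 7100 ± 1157 (SD, n = 4). DESeq2 on the 10 libraries called Grb7 at 0.51 with an adjusted p of 0.0243, and its adjusted p ran from 0.0243 to 1 over the alternatives. Muc20, a membrane mucin of renal epithelium, had 3537, 3840, 2969, 1536 and 2287 reads and then 4491, 5698, 3960, 6663 and 4929. The lowest GSK2830371 kidney was just above the highest DMSO kidney. The difference was 0.91 (0.44 to 1.38), and the controls, at 2190 ± 283 (SD, n = 4), were below the mean of either treatment.

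Fgd5, an exchange factor for the GTPase Cdc42 that marks endothelium, had 1247, 955, 1195, 851 and 1049 reads under DMSO and 1739, 1685, 1519, 1336 and 1632 under GSK2830371. The groups did not overlap, at 0.59 (0.29 to 0.88), and the controls, at 1059 ± 126 (SD, n = 4), matched the mean of DMSO. Sparcl1, a secreted matricellular protein of vessel walls, had 4017, 5750, 5417, 2834 and 5136 reads and then 7816, 8427, 6192, 6428 and 11446. GSK2830371 replicate 5 was highest and the groups did not overlap, at 0.81 (0.37 to 1.25). Ccdc3, a secreted protein, had 274, 253, 233, 154 and 280 reads and then 385, 560, 367, 365 and 391, at 0.80 (0.36 to 1.24). Here 4 of the GSK2830371 kidneys agreed closely and replicate 2 was above them. Parm1, a mucin-like membrane protein, differed by 0.58 (0.27 to 0.89), and the SCAN zinc finger gene Zscan2 by 0.77 (0.39 to 1.16), both without overlap. The zinc finger gene Zkscan14, at 0.83 (0.40 to 1.25), and Malrd1, at 0.75 (0.33 to 1.16), overlapped between the groups. Of these 20 genes 12 had libraries that did not overlap, but small p values chose them and nothing is read from that count.

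**Figure D3:**
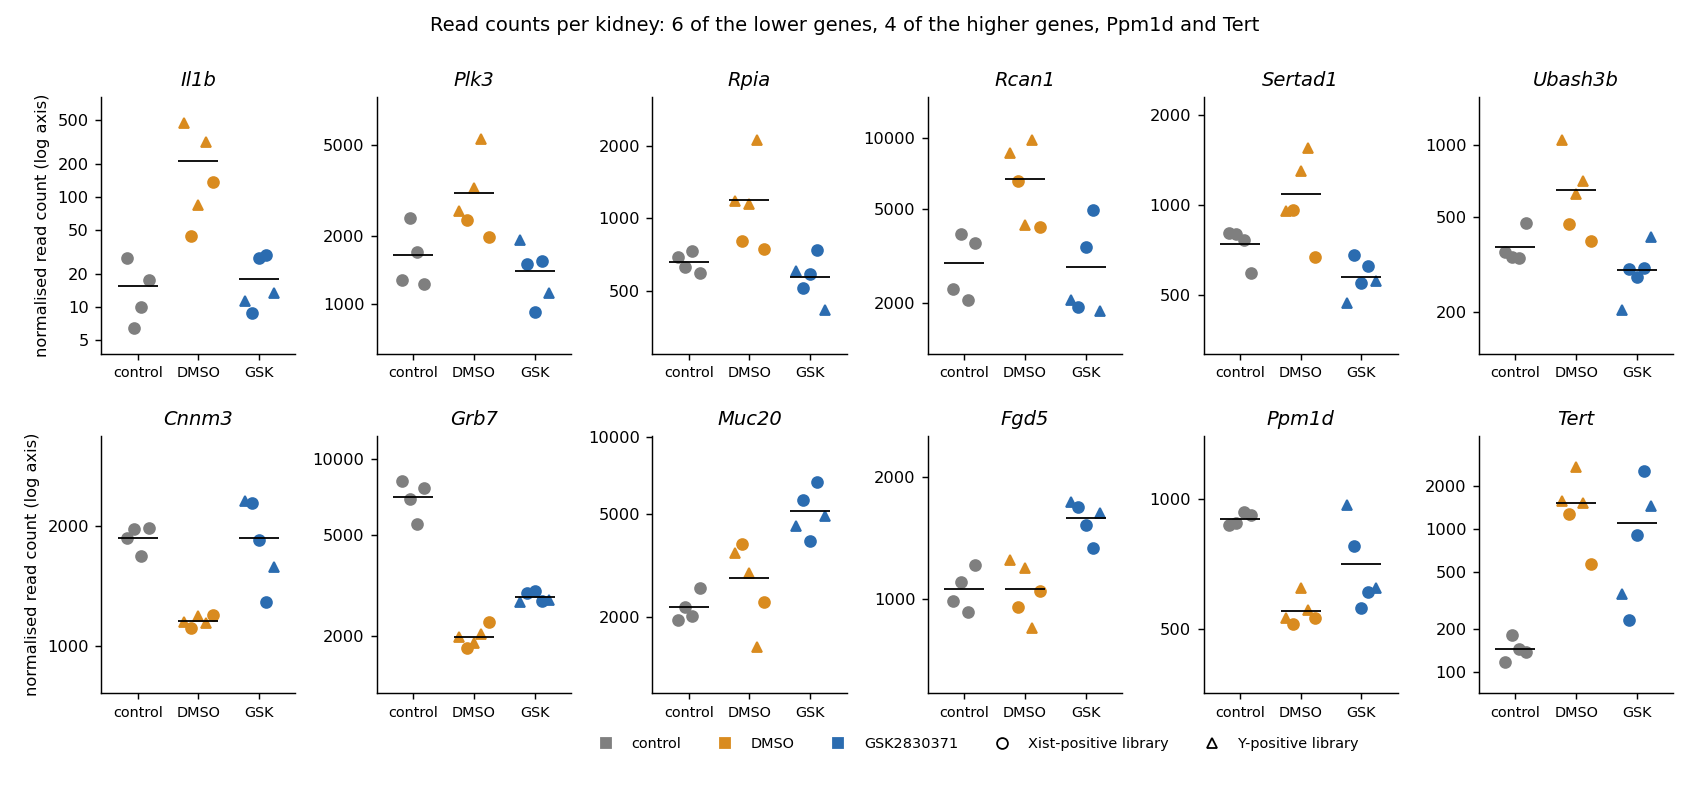
Normalised reads (log axis) of 12 genes in each kidney, by group, with shape giving the sex read from the library and a line at the group mean. In Il1b, Plk3 and Rpia every GSK2830371 kidney lies below every DMSO kidney, in Cnnm3, Grb7, Muc20 and Fgd5 every one lies above, and in Ppm1d and Tert the groups overlap.

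Libraries did not overlap in 45 higher and 46 lower genes (0.239% and 0.245% of all genes). Of these, 44 and 31 had at least 1 CPM. A mean of 1 CPM in either group was enough, so a gene could pass only through the group where it was high. Nothing is read from these counts, and several of the largest differences were in genes of low counts. Cldn11, a tight junction claudin, had 3.63, 4.58, 13, 3.17 and 8.28 reads under DMSO and 19.2, 13.5, 17.7, 158 and 13.4 under GSK2830371. GSK2830371 replicate 4 was far above the other kidneys and the rest of its group was just above DMSO. The difference was 1.96 (0.76 to 3.16), and the controls had 248 ± 16.2 (SD, n = 4). Vit, an extracellular matrix protein, had 24.2, 26.6, 26, 19 and 27.3 reads and then 47.3, 50.3, 98.6, 70.1 and 37.6, a difference of 1.20 (0.45 to 1.95). Dnase1l2, a secreted DNase, had 71.5 ± 23.1 and 144 ± 25.2 reads, a difference of 1.06 (0.43 to 1.70). On the lower side, Egr3, an immediate early transcription factor, had 31.4, 22.9, 29.7, 130 and 35.6 reads and then 9.02, 7.74, 6.9, 21.6 and 20.9. DMSO replicate 4 was far above the rest of its group, and the difference was -1.68 (-2.71 to -0.65). Cd244a, a receptor of natural killer and other leukocytes, differed by -1.32 (-2.30 to -0.33), from 61.1 ± 33 to 23.1 ± 8.41 reads.

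Genes of inflammation and NF-kB had the lowest median of the pathway lists outside the sex-biased ones. Of 26 measured, 21 were lower and 5 higher, at a median of -0.64 beside -0.0063 over all genes. At an unadjusted p under 0.05 there were 6 lower and 0 higher, beside 1.97% and 2.28% of all genes, and none passed the adjusted threshold. Tnf, the cytokine tumour necrosis factor, had 13.3, 60.5, 66.7, 21.1 and 33.1 reads under DMSO and 10.1, 11.6, 8.87, 26 and 11.7 under GSK2830371. The groups overlapped through DMSO replicates 1 and 4 and GSK2830371 replicate 4, and the controls had 11.8 ± 6.26 (SD, n = 4). The difference was -1.31 (-2.30 to -0.33). Nfkbiz, an inducible nuclear cofactor of NF-kB, had 2066, 1059, 1749, 1355 and 1019 reads and then 1181, 718, 554, 698 and 1002. GSK2830371 replicate 1 lay above DMSO replicates 2 and 5, and the difference was -0.80 (-1.30 to -0.30).

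Subunits of NF-kB differed less. Nfkb2 differed by -0.54 (-0.92 to -0.16), Relb by -0.58 (-1.06 to -0.10) and Nfkb1 by -0.35 (-0.69 to -0.02). Rela, at -0.22, had an interval across 0 (-0.76 to 0.33). The feedback inhibitors did not share the sign, with Nfkbia at 0.24 (-0.25 to 0.74) and Tnfaip3 at 0.12 (-0.39 to 0.63). Neutrophil-attracting chemokines were lower with wide intervals: Cxcl1 went from 5407 ± 5718 to 1867 ± 1536 reads, a difference of -1.20 (-2.80 to 0.40), and Cxcl2 from 353 ± 199 to 143 ± 95.7, a difference of -1.53 (-3.19 to 0.13). Both were far above the controls in either treatment, where Cxcl1 had 25.4 ± 14.4 reads (SD, n = 4). The genes of this paragraph were picked from the list after their values were seen.

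The level of the inflammation list, as the mean of its genes above the controls, was 2.50, 2.19, 2.58, 2.29 and 1.71 in DMSO replicates 1 to 5 and 1.92, 1.60, 0.90, 2.04 and 1.48 in GSK2830371 replicates 1 to 5. Only DMSO replicate 5 fell inside the GSK2830371 range, and every i-TERTci kidney was above every control (-0.27 to 0.42). The list median was -0.45 among kidneys at 31 days or fewer, -0.49 among Xist-positive kidneys and -0.58 among Y-positive ones. With sex and days in the model it was -0.61.

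Neutrophil markers were lower too over all 10 kidneys, but not within every subset of them. All 14 measured were lower, at a median of -0.52, and 0 were at an unadjusted p under 0.05. S100a8, a calprotectin subunit, had 3275 ± 3625 reads under DMSO and 1994 ± 2381 under GSK2830371 (SD, n = 5 each), against 6.55 ± 9.76 in the controls, a difference of -0.90 (-3.88 to 2.09). The neutrophil level spread from 3.47 to 7.18 in the DMSO kidneys and from 2.29 to 7.23 in the GSK2830371 kidneys, so that nearly the whole range was shared. Ly6g, a defining marker, was at 0 in every control. Without GSK2830371 replicate 4, the kidney with the lowest level and with the most adipocyte reads, the median was 0.23, and with 1 kidney left out it ran from -1.17 to 0.23. The median turned to 0.56 among kidneys at 31 days or fewer and to 0.45 among Xist-positive ones, and was -0.67 among Y-positive ones. The part of neutrophils in the inflammation values was not tested.

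Lists of other white blood cells and of interferon genes differed in sign or size between Xist-positive and Y-positive kidneys, where sex and days cannot be told apart. Of 27 macrophage genes 14 were higher and 13 lower, at a median of 0.02. Gpnmb, a lysosomal glycoprotein of lipid-laden macrophages, had 64.1, 123, 228, 42.3 and 61.3 reads under DMSO and 144, 340, 92.7, 214 and 299 under GSK2830371, an overlapping difference of 1.18 (0.16 to 2.21). Of 16 T and natural killer cell genes 13 were lower (median -0.27), and of 14 B and plasma cell genes 9 were lower (median -0.17), with 0 at an unadjusted p under 0.05 in both. Of 29 interferon response genes 23 were lower, at a median of -0.28. At an unadjusted p under 0.05, 2 were lower, beside 1.97% of all genes. Among Xist-positive kidneys the medians were -0.66 for macrophage, -1.37 for T and natural killer cell, -0.55 for B and plasma cell and -0.83 for interferon genes, against 0.74, 0.43, -0.01 and 0.06 among Y-positive kidneys. Without DMSO replicate 5 the T and natural killer cell median was 0.09 and the B and plasma cell median 0.30, and the latter was 0.05 without DMSO replicate 4 and 0.04 without GSK2830371 replicate 5. The 2 interferon genes were Irf1, a transcription factor of the interferon gamma response, at -0.51 (-0.92 to -0.11), and Stat2. Complement genes were level, with 13 of 20 higher and a median of 0.05.

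Of 22 immediate early and heat shock genes, 17 were lower at a median of -0.36. At an unadjusted p under 0.05, 4 were lower (Egr3, Egr2, Myc and Atf3), beside 1.97% of all genes. Egr2 differed by -1.84 (-3.12 to -0.56), Atf3 by -1.16 (-2.13 to -0.20) and Myc by -0.92 (-1.64 to -0.19). Atf3, a stress transcription factor, had 1773 ± 987 reads under DMSO, 753 ± 361 under GSK2830371 and 84.4 ± 25.3 in the controls. The highest member was the transcription factor gene Klf4, at 0.66, and the heat shock genes Hspa1a and Hspa1b stood at 0.29 (-0.16 to 0.75) and 0.48 (-0.18 to 1.13). The list's median was -0.02 among kidneys at 31 days or fewer and 0.06 among Xist-positive ones. DMSO replicate 4, at 38 days, had the highest level, 2.18.

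Oxidative stress genes were nearly all lower by small amounts. Of 22 measured 21 were lower, at a median of -0.27. At an unadjusted p under 0.05, 2 were lower, beside 1.97% of all genes. Osgin1, a growth inhibitor induced by NRF2, had 1994, 1678, 1287, 5448 and 1366 reads under DMSO and 694, 621, 1508, 2277 and 662 under GSK2830371. GSK2830371 replicates 3 and 4 lay within the DMSO range, and the difference was -1.01 (-1.90 to -0.11). Hmox1, heme oxygenase 1, was at 12528 ± 22398 reads under DMSO, an SD larger than its mean, and 1183 ± 360 under GSK2830371, at -1.83 (-3.55 to -0.11). The list's median was 0.05 among Xist-positive kidneys and -0.48 among Y-positive ones. The 13 protein genes of the mitochondrial genome were all lower too, at a median of -0.37. Beside 1.97% of all genes, 1 of them was lower at an unadjusted p under 0.05. That was mt-Co2, a cytochrome oxidase subunit, at 5321 ± 1893 and 3475 ± 733 reads. Their median was 0.03 among Xist-positive kidneys and -0.49 among Y-positive ones. Of 32 nuclear genes of oxidative phosphorylation 28 were lower, at a median of -0.10.

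Of the nephron segments, the intercalated cells of the collecting duct, which secrete acid and base, had the highest median. Of 13 markers 12 were higher, at 0.62. At an unadjusted p under 0.05, 4 were higher (Atp6v0d2, Aqp6, Rhbg and Atp6v1b1), beside 2.28% of all genes. Atp6v0d2, a subunit of the proton pump, had 736, 1164, 1154, 370 and 913 reads under DMSO and 1607, 1892, 1716, 911 and 1573 under GSK2830371. GSK2830371 replicate 4 lay within the DMSO range and the other 4 were above it, and the controls had 2235 ± 279 (SD, n = 4). The difference was 0.90 (0.31 to 1.48). Aqp6, an intracellular aquaporin, went from 1413 ± 637 to 3313 ± 1781 reads, beside 4244 ± 336 in the controls. Foxi1, which specifies the cell type, differed by 0.26 (-0.59 to 1.11), and Slc26a4, the pendrin of base-secreting cells, by -0.02 (-0.69 to 0.66). The list stood below the controls in every i-TERTci kidney, from -2.87 to -1.11 under DMSO and from -1.80 to -0.71 under GSK2830371. Its median was 0.28 among kidneys at 31 days or fewer, 0.08 among Xist-positive and 1.01 among Y-positive kidneys.

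Principal cells, the partners of intercalated cells that take up sodium and water, were higher in all 12 markers, at a median of 0.35. Of these, 2 were at an unadjusted p under 0.05, beside 2.28% of all genes that were higher at it. The list's median was 0.22 among kidneys at 31 days or fewer, 0.07 among Xist-positive and 0.26 among Y-positive kidneys. Scnn1b, a subunit of the epithelial sodium channel, had 1627, 1935, 1470, 1119 and 1858 reads under DMSO and 2058, 2217, 1897, 1623 and 2489 under GSK2830371. The groups overlapped, at 0.37 (0.01 to 0.73), and the Scnn1b difference was 0.00035 among Xist-positive kidneys. The water channel gene Aqp2 differed by 0.32 (-0.25 to 0.89). Loop of Henle and distal tubule markers had medians of 0.25 and 0.14, with 9 of 12 higher in each. Proximal tubule markers were level, with 17 of 30 higher and a median of 0.07. Slc34a1 had 75073, 65101, 31519, 142435 and 134319 reads and then 111371, 28556, 94011, 137777 and 63086, a difference of -0.04 (-1.0 to 0.92). Each group covered nearly the same range, far below the controls at 361366 ± 118501 (SD, n = 4). G6pc, the glucose-6-phosphatase of gluconeogenesis, had 34719, 5349, 1849, 1919 and 10010 reads and then 20452, 11901, 39773, 16103 and 16213. DMSO replicate 1 lay inside the GSK2830371 range and the other 4 DMSO kidneys were below it, at 1.72 (0.30 to 3.13).

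Podocytes, the cells at which the disease starts, showed no common direction. Of 28 markers 12 were higher and 16 lower, at a median of -0.05, and 0 were at an unadjusted p under 0.05. Nphs1 had 4850, 1172, 2044, 2683 and 2432 reads under DMSO and 2468, 923, 4082, 2355 and 1078 under GSK2830371. The groups overlapped throughout, at -0.34 (-1.18 to 0.51), and the controls had 1773 ± 219 (SD, n = 4). The transcription factor gene Wt1 differed by 0.07 (-0.41 to 0.55). Synpo, a podocyte actin regulator, had 3564 ± 868 and 3450 ± 566 reads, at -0.03 (-0.42 to 0.36). The highest podocyte difference was that of Npnt, a basement membrane ligand of integrins, at 0.36 (-0.08 to 0.80), and the lowest that of Nes, the filament protein nestin, at -0.45 (-1.04 to 0.14). Parietal epithelial cell markers had a median of 0.06. Injured tubule genes had 14 of 24 lower and a median of -0.08. Havcr1, the KIM-1 gene of injured tubule, had 713, 7309, 1792, 10307 and 1106 reads and then 2832, 1940, 7848, 7091 and 1138, at 0.34 (-1.22 to 1.90). The controls, at 17545 ± 3910 Havcr1 reads (SD, n = 4), were above every i-TERTci kidney. Havcr1 differed over 10-fold within the DMSO group alone, and edgeR and DESeq2 both put its treatment difference at -0.02. Plin2, a lipid droplet coat gene of the same list, had 45042, 7658, 25129, 35448 and 3670 reads and then 7151, 11430, 2901, 5528 and 4233, at -1.53 (-2.81 to -0.26). The 3 Y-positive DMSO kidneys were above all the others.

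Proliferation genes were lower in most members and by little. Of 37 cell cycle genes 31 were lower, at a median of -0.24, and 0 were at an unadjusted p under 0.05. That median was -0.09 among kidneys at 31 days or fewer, -0.50 among Xist-positive and -0.03 among Y-positive kidneys. It was -0.08 without GSK2830371 replicate 3. Mki67, the marker of cycling cells, had 146, 424, 439, 366 and 679 reads under DMSO and 393, 165, 87.7, 871 and 217 under GSK2830371, at -0.53 (-1.73 to 0.67). GSK2830371 replicate 4 was the highest and replicate 3 the lowest of the 10. DNA damage response genes were level, with 12 of 25 higher and a median of -0.01. Among the CDK inhibitors and senescence genes, 10 of 22 were higher, at a median of -0.06. Cdkn1b, which encodes p27, had 2276, 2113, 2757, 1956 and 2260 reads and then 3701, 3736, 2823, 2484 and 2953. GSK2830371 replicate 4 lay within the DMSO range, at 0.46 (0.16 to 0.76). Gdf15, a stress cytokine of that list, had 709, 1247, 1549, 6100 and 476 reads and then 108, 825, 209, 567 and 473, at -1.92 (-3.29 to -0.56). It was -1.37 without DMSO replicate 4, and -0.74 among Xist-positive kidneys.

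Stromal and matrix genes were mostly higher. Of 18 mesangial and fibroblast markers 16 were higher, at a median of 0.47, with 6 at an unadjusted p under 0.05 beside 2.28% of all genes, and the libraries of 1, Rgs5, did not overlap beside 0.239% of all genes. Cspg4, a pericyte proteoglycan, had 1100, 3436, 1922, 1232 and 2351 reads under DMSO and 2548, 3784, 3250, 2493 and 3643 under GSK2830371. DMSO replicate 2 lay within the GSK2830371 range, at 0.75 (0.18 to 1.32). Rgs5, a regulator of G protein signalling in pericytes, went from 2641 ± 704 to 3645 ± 551 reads, a difference of 0.51 (0.07 to 0.95). Pdgfrb and Acta2, the receptor and the smooth muscle actin commonly used to mark these cells, were level: Pdgfrb had 2969 ± 519 and 2994 ± 675 reads (interval of the difference -0.41 to 0.41), and Acta2 differed by 0.01 (-0.77 to 0.79). The list's median was 0.30 among kidneys at 31 days or fewer, 0.11 among Xist-positive and 0.65 among Y-positive kidneys. Of 35 extracellular matrix genes 29 were higher, at a median of 0.30 with 0 at an unadjusted p under 0.05. That median was -0.12 among Xist-positive kidneys and 0.67 among Y-positive ones. Col1a1, a fibrillar collagen chain, had 3290, 47840, 13630, 2679 and 11120 reads and then 16462, 37324, 4752, 14270 and 29044, at 0.85 (-0.83 to 2.53). DMSO replicate 2 and GSK2830371 replicate 2 were the highest, and the ranges overlapped. Among Xist-positive kidneys the Col1a1 difference was -0.76.

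Of 28 Wnt pathway genes 24 were higher, at a median of 0.21. At an unadjusted p under 0.05, 2 were higher, Wnt4 and Wnt9b, beside 2.28% of all genes. Wnt4, a ligand of tubule formation, had 160, 244, 179, 88.8 and 165 reads under DMSO and 220, 306, 269, 559 and 262 under GSK2830371, at 0.94 (0.32 to 1.55). GSK2830371 replicate 1 lay within the DMSO range and replicate 4 was the highest. Wnt9b, a ligand of the ureteric bud and collecting duct, went from 72.4 ± 50.4 to 138 ± 43.9 reads beside 671 ± 68.1 in the controls. Axin2, a transcriptional readout of Wnt signalling, differed by 0.82 (-0.28 to 1.92). TGF-beta and Notch pathway medians were 0.04 and 0.09. The endothelial median was 0.18, and Vwf, the von Willebrand factor gene, differed by 0.41 (0.03 to 0.78).

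**Figure D4:**
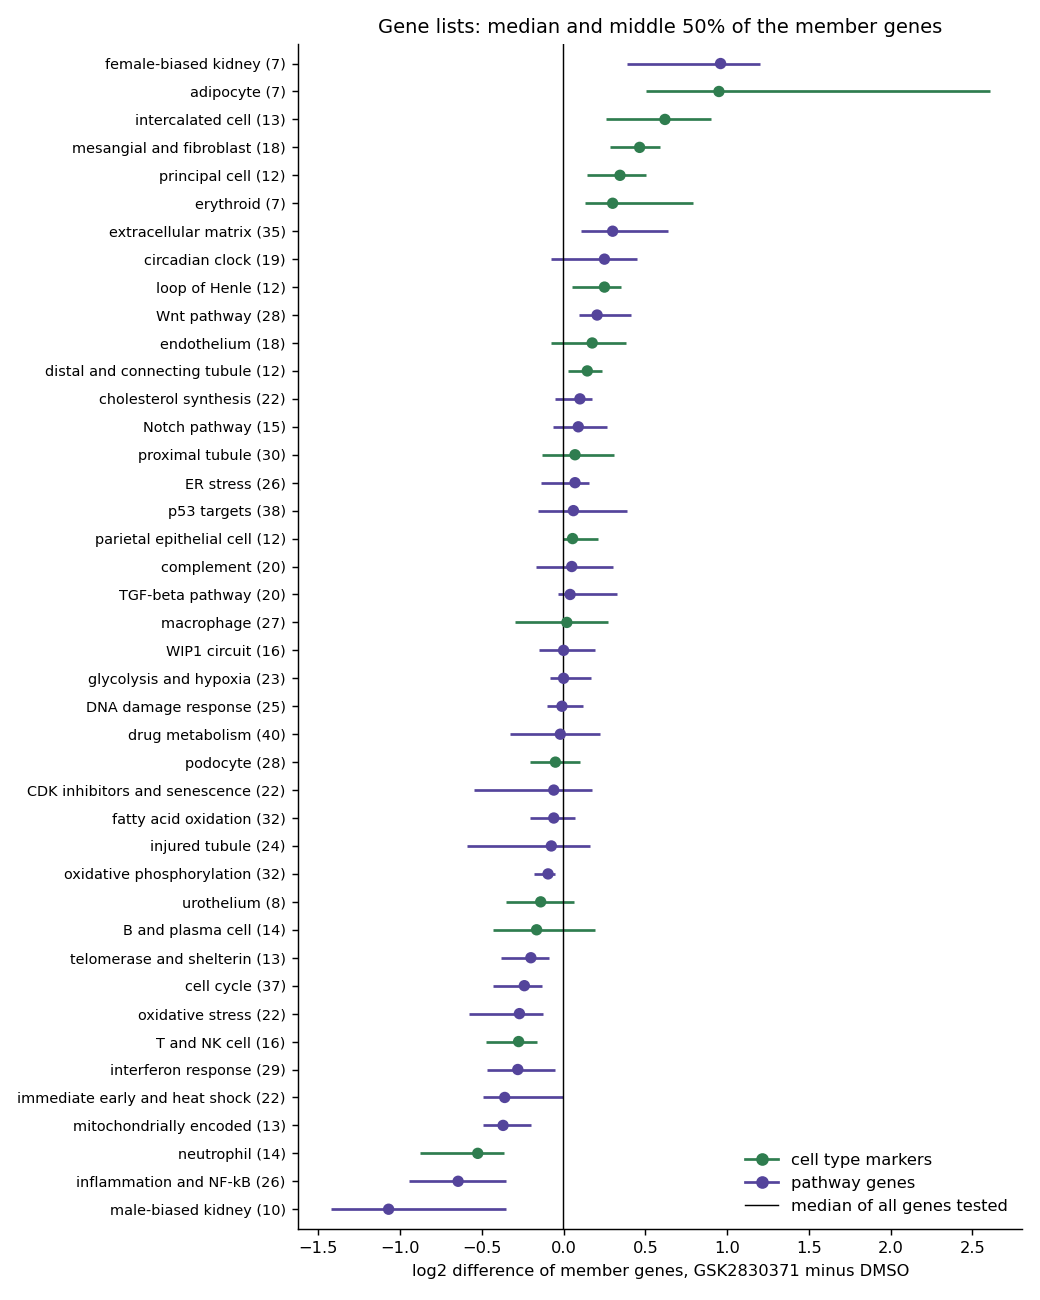
Median (point) and middle 50% (bar) of the log2 differences of the member genes of each list with 5 or more genes tested, number in brackets, by kind of list, with sex-linked genes left out. The line marks the median of all genes, -0.0063. Inflammation, neutrophil and male-biased lists lie lowest, and intercalated cell, adipocyte and female-biased lists highest.

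Metabolic genes were near the level of all genes. Fatty acid oxidation genes had 19 of 32 lower and a median of -0.06. Acaa1b, a peroxisomal thiolase, had 10353 ± 2611 and 7152 ± 2537 reads, at -0.56 (-1.06 to -0.05). Ppara, the lipid-sensing receptor at the head of the list, differed by 0.01 (-0.68 to 0.70). Of 40 genes of drug metabolism 19 were higher and 21 lower, at a median of -0.02. Ugt1a1, a glucuronosyltransferase, had 444, 1178, 533, 238 and 568 reads under DMSO and 967, 1201, 895, 1250 and 2531 under GSK2830371, at 1.29 (0.28 to 2.30). DMSO replicate 2 lay within the GSK2830371 range and replicate 5 of GSK2830371 was the highest. Cyp1a1, the classical target of the aryl hydrocarbon receptor, was below 20 reads in all 10 kidneys. Cholesterol synthesis, glycolysis and ER stress lists had medians of 0.10, -0.005 and 0.07. Insig1, which restrains cholesterol synthesis, was the lowest-p member of the first, at 0.74 (0.05 to 1.42), and Herpud1, a component of ER-associated degradation, that of the last, at 0.61 (0.05 to 1.16). The circadian list had a median of 0.25, and its repressor Nr1d1 differed by 1.13 (0.11 to 2.15). The hour at which kidneys were taken is not in the labels.

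Telomerase and shelterin genes had 10 of 13 lower, at a median of -0.20. Tert is a member and carries the transgene. Gar1, a protein of the telomerase RNA complex, had 434 ± 155 and 294 ± 33.5 reads, at -0.51 (-0.98 to -0.03). Dkc1, dyskerin, differed by -0.22 (-0.63 to 0.18).

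Sex and tissue outside the kidney also differed between the groups. Genes biased to male kidney were all lower, 10 of 10, at a median of -1.07, and 6 of 7 genes biased to female kidney were higher, at 0.96, where the DMSO group had 3 Y-positive kidneys and the GSK2830371 group 2. None was at an unadjusted p under 0.05. With sex in the model the medians were -0.53 and 0.77. The male-biased median turned to 1.24 at 31 days or fewer, where both GSK2830371 kidneys were Y-positive. It was 0.36 among Xist-positive kidneys and -1.0 among Y-positive ones. The female-biased median was -0.07 at 31 days or fewer, 0.17 among Xist-positive and 0.89 among Y-positive kidneys. Erythroid markers were higher in 7 of 7, at a median of 0.30, but edgeR gave a median of -0.48 and DESeq2 one of -0.49. The limma median was -0.73 without DMSO replicate 2, -0.10 without GSK2830371 replicate 3, 1.84 among Xist-positive and -0.98 among Y-positive kidneys. Urothelial markers had a median of -0.14, which ran from -0.67 to 0.16 with 1 kidney left out. Adipocyte markers were higher in 7 of 7, at a median of 0.95, which was -0.07 without GSK2830371 replicate 4. Adipoq, the adiponectin gene, had 0, 0, 1.85, 0 and 0.828 reads under DMSO and 0, 15.5, 1.97, 1313 and 28.4 under GSK2830371. Its difference was 2.15 without GSK2830371 replicate 4. The adipocyte level of that kidney was 3.55, beside -3.67 to -1.82 in the other 4 of its group and -3.37 to -2.80 under DMSO. GSK2830371 replicates 2 and 5, at -1.95 and -1.82, were also above every DMSO kidney. The list median among kidneys at 31 days or fewer was -0.07. Cldn11, Atp6v0d2 and Tnf also had their outlying value in GSK2830371 replicate 4, and what surrounding fat adds to them was not tested.

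**Figure D5:**
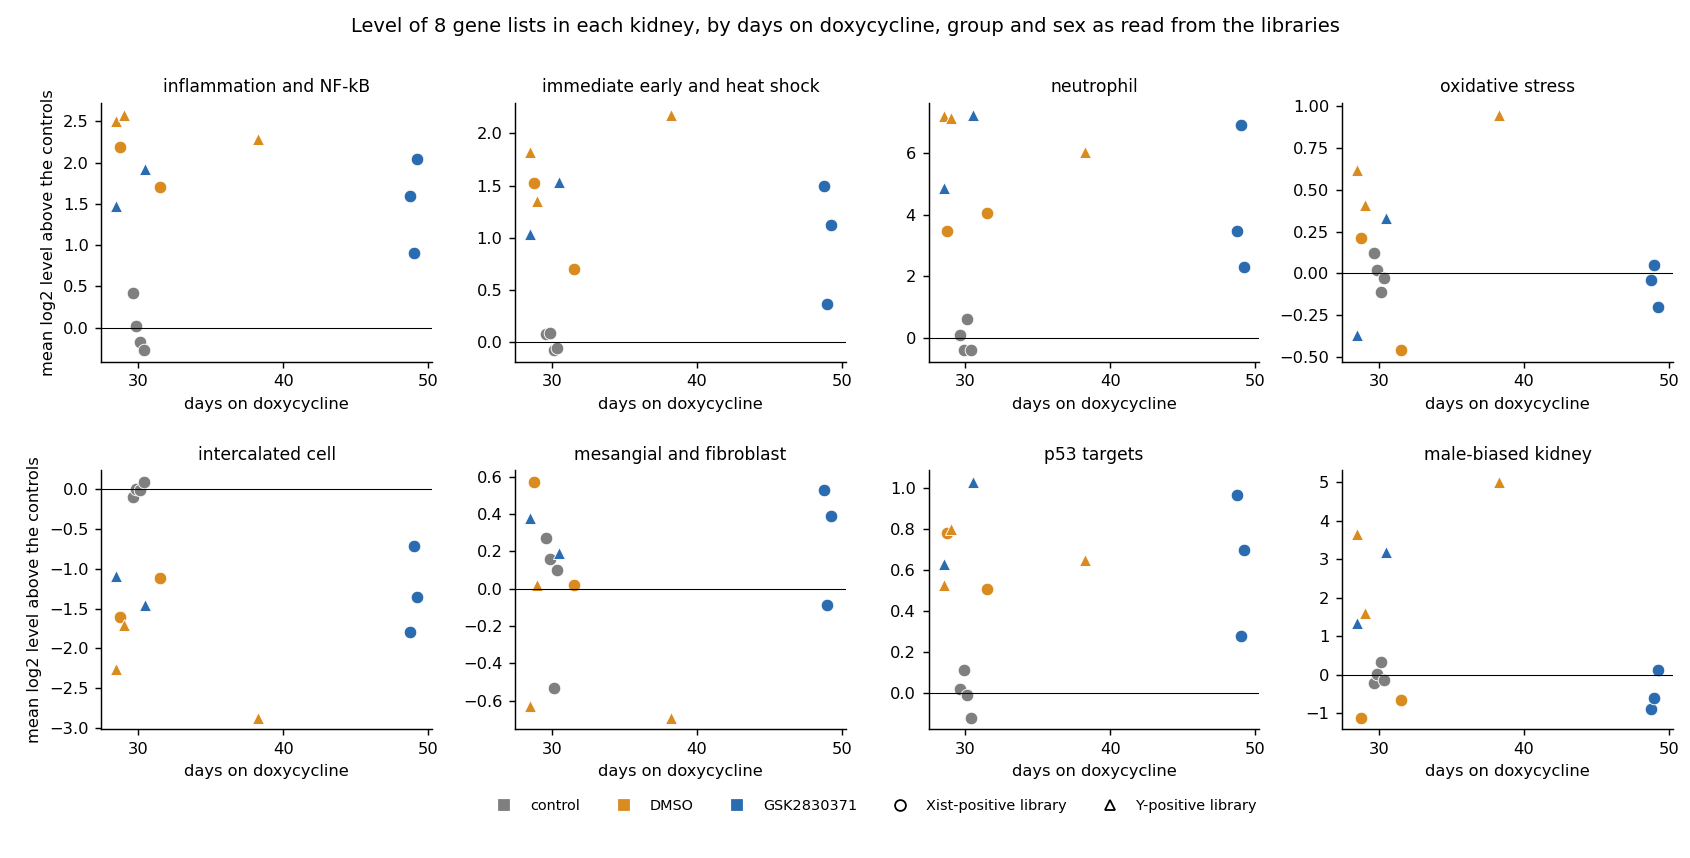
Mean log2 level above the controls of 8 gene lists in each kidney against days on doxycycline (points of 1 day are set slightly apart), with colour for the group and shape for the sex read from the library. The 3 kidneys at 49 days are all GSK2830371 and Xist-positive. In the inflammation list only DMSO replicate 5 falls within the range of the GSK2830371 kidneys, while neutrophil and p53 target levels overlap widely.

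The treatment difference was also compared between Xist-positive and Y-positive kidneys. limma found 0 genes (0%) at an adjusted p under 0.05 for that difference of differences, and 475 (2.53%) at an unadjusted p under 0.05. With 2 and 3 kidneys on the Xist-positive side and 3 and 2 on the other, that test has few kidneys behind it. The Xist-positive GSK2830371 kidneys were all at 49 days, so the test cannot tell sex from days. Fitted on Xist-positive kidneys alone, limma called 2 genes, the predicted genes Gm10036, at 3.97, and Gm6724, at 5.79, both with an adjusted p of 0.00244, and these were chosen after their values were seen. Neither Il1b nor any other gene named above was called in that fit.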

How the data were processed

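Total RNA of whole kidney from 14 mice was sequenced, per the labels. Per the submitters' processing notes, FastQC, Trimmomatic, STAR and DESeq2 were used with the mouse build mm10; no version is named there, and for the read counter, its annotation and its use of strand the entry is: not given in the sources used here. Deposited tables hold a signal that the authors made by dividing each gene's reads by a size factor for its library. Whole reads were recovered from these steps: 100% of values came out whole within a tolerance of 0.001, and the controls' reads, present in both tables, had 0 mismatches. The tables hold 24221 and 24164 genes, with 23682 in both, 539 and 482 in only 1. Symbols were those that the authors deposited. Gene positions and gene types came from GENCODE M21, which matched 22780 genes and not the other 902.

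Reads were scaled again by median-of-ratios size factors over all 14 libraries, and edgeR's filterByExpr kept 18810 genes. limma (3.58.1, in R 4.3.3) was fitted to log2(normalised reads + 1), with a mean-variance trend and robust moderation, on 3 groups that share 1 estimate of the spread. The contrast was GSK2830371 minus DMSO, tested two-sided, and p-values were adjusted over all 18810 genes by the Benjamini-Hochberg method, with 0.05 as threshold. Such a fold change understates the change of genes with few reads. Depth limits genes of few reads most. edgeR (4.0.16) and DESeq2 (1.42.0) on the recovered reads, other scalings, pseudocounts, subsets and covariates made 30 alternatives, 27 planned and 3 chosen after seeing the data. Each library is labelled as 1 mouse, and p-values measure the spread between these samples. The fit was tested on simulated data. Figures were drawn with Python 3.11.15 and matplotlib 3.10.9.

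The members and gene lists were chosen with earlier results of these data known: 44 lists (17 of cell markers, 27 of pathways) of 864 symbols, 851 of them found. Named genes are Tert and Ppm1d, the 10 smallest p in each direction at 1 CPM (reads scaled to library size) or more, the 5 largest non-overlapping differences in each direction, and for each list its smallest p, with the head gene and the 2 smallest p for the main lists. Predicted, pseudo- and sex-linked genes were counted and not named by this rule. For the 1 CPM limit, the mean of either i-TERTci group was enough. Other list members given as examples were picked after their values were seen.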

Additional observations from a re-analysis of the deposited data

Results flagged for a closer look

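In 8 of the 176 pairs of a named gene and a group (4.55%), the highest or lowest of the 5 kidneys stood farther from the rest than Dixon's 95% criterion allows, and chance alone marks about 1 in 20 such groups. DMSO replicate 4 was the highest of its group in Egr3 (130 normalised reads, others 22.9 to 35.6), in the cyclin-dependent kinase gene Cdk6 (2683, others 1265 to 1514) and in the excision repair gene Ercc1 (1556, others 431 to 527). GSK2830371 replicate 4 was the highest in Cldn11 (158, others 13.4 to 19.2) and Tnf (26, others 8.87 to 11.7) and the lowest in Atp6v0d2 (911, others 1573 to 1892). DMSO replicate 5 was the lowest in Cdkn1a (1756, others 6626 to 11191). GSK2830371 replicate 2 was the highest in Ccdc3 (560, others 365 to 391).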

How the results depend on the processing

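The count of genes past the adjusted threshold was 0 in every setting but 3: it was 1 with DESeq2, 2 with DESeq2 on the 10 i-TERTci libraries and 2 on Xist-positive kidneys alone. Leaving out each kidney in turn gave 0 to 0 genes. The count at an unadjusted p under 0.05 was 1353 with sex and days as covariates, 531 on Xist-positive kidneys and 486 at 31 days or fewer without the controls. It ran from 542 to 1377 with 1 kidney left out, the highest without DMSO replicate 5. The 2 medians over genes that separate i-TERTci from control kidneys ran from -0.079 to 0.004 and from -0.008 to 0.071 with 1 kidney left out. They were 0.025 and -0.044 at 31 days or fewer, and 0.050 and 0.001 on Xist-positive kidneys. With days as a covariate they were -0.009 and -0.026, and with sex as a covariate -0.009 and 0.004. Over the lists, 10 of 1320 medians moved beyond the spread between kidneys, and 39 of 44 lists never did. That spread was the larger group SD of the list level, so a median of a widely spread list can change sign and not count. The male-biased median, with an SD of 2.66, went from -1.07 to 1.24 at 31 days or fewer. The neutrophil median, with an SD of 2.14, went from -0.52 to 0.56 there.

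With the replicate number as a block, limma gave 0 genes at an adjusted p under 0.05 and 1088 at an unadjusted p under 0.05. The deviations of same-numbered kidneys correlated at 0.34, 0.27, -0.031, 0.038 and 0.13, and only numbers 1 and 2 correlated best with their own. The labels do not say whether the numbers pair the mice, and these few values cannot settle it.

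Of 88 named genes 73 kept their direction in all 30 alternatives, and the other 15 crossed 0 in at least 1; the cause was not tested. Many of the 88 were named for small p values or non-overlapping libraries in these same data. The alternatives also share the same kidneys, so a kept direction adds no support. On Xist-positive kidneys the difference was -0.11 in Brca1, 0.29 in Nphs1, -0.23 in Ncam1, 0.10 in Plin2, 0.45 in Xbp1, -0.76 in Col1a1 and 0.25 in Timd2. At 31 days or fewer, with or without the controls, it was 0.03 in Cdk6, 0.31 in Slc34a1, -0.03 in Ppara, 0.23 in Timd2 and -0.32 in Abcc3. On Y-positive kidneys it was 0.03 in Mki67, -0.40 in Havcr1, 0.27 in Slc34a1 and -0.02 in Ppara. edgeR and DESeq2, on 14 or 10 libraries, gave -0.02 for Havcr1 and -0.04 for Ppara, and days as a covariate, alone or with sex, gave -0.63 for Havcr1. With 1 kidney left out, Cdkn1a ran from -0.09 to 0.67 and Havcr1 from -0.12 to 0.85. Slc34a1 ran from -0.36 to 0.32, crossing 0 at 0.18, 0.16, 0.32 and 0.03. Ppara ran from -0.15 to 0.21, crossing at -0.15, -0.01, -0.06 and -0.12. Cyp1a1 ran from -0.61 to 0.42, crossing at 0.10, 0.20 and 0.42.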
